A study of Homo sapiens with 8 samples.

Results

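The 7 genes described here are core components of the Hedgehog pathway, namely the receptor gene PTCH1, the signal transducer gene SMO, the GLI inhibitor gene SUFU, the transcription factor genes GLI1, GLI2 and GLI3, and the ligand trap gene HHIP. They were picked by symbol out of the 26364 genes of the count file, and the set was chosen by levels and changes already known from these same libraries. Their values are therefore given as a description without a test, and values under other settings are given to show how far they moved. The cells were LN229, a human glioblastoma line, in the form of 2 stable transfectants that were each a single clone grown under G418. Clone Surv-GFP (D6) carried Survivin with a functional nuclear export signal fused to eGFP, which lay mainly in the cytoplasm. Clone SurvNESmut-GFP (L2) carried the fusion with a mutated export signal, which lay mainly in the nucleus. Each clone was left untreated or was exposed to 50 µM temozolomide (TMZ), a methylating agent, for 48 h, which gave 4 groups of 2 libraries lettered a and b. Since there was 1 clone for each construct, clone and construct cannot be told apart, and a legend of the study mentions both biological replicates and technical duplicates without saying which the letters are.

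In Hedgehog signalling, PTCH1 keeps SMO inactive until a ligand (SHH, IHH or DHH) binds PTCH1. Active SMO gathers in the primary cilium and frees the GLI proteins from SUFU, and GLI proteins then switch on target genes. GLI2 is mostly an activator, GLI3 mostly a repressor when processed, and GLI1 an activator that is itself a target. PTCH1 and HHIP are targets too, and both restrain the pathway, PTCH1 at the membrane and HHIP by binding ligand. In glioma, the pathway is known for its activity in stem-like cells.

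By the GENCODE v29 annotation of GRCh38, PTCH1 (ENSG00000185920) lies on the minus strand of chr9:95442980-95517057 and HHIP (ENSG00000164161) on the plus strand of chr4:144646021-144745271. SMO (ENSG00000128602) lies on the plus strand of chr7:129188872-129213545, and SUFU (ENSG00000107882) on the plus strand of chr10:102503987-102633535. GLI1 (ENSG00000111087) lies on the plus strand of chr12:57460135-57472262, GLI2 (ENSG00000074047) on the plus strand of chr2:120735623-120992653, and GLI3 (ENSG00000106571) on the minus strand of chr7:41960950-42237870. For the authors' own build, no source used here gives a name.

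The promoter windows of PTCH1 and HHIP are shown because both genes are known GLI targets whose levels moved in opposite directions upon TMZ. Each window holds 250 bases before a RefSeq transcript start and 50 bases after it, on GRCh38.p14, written along the gene's strand. Capitals mark the 9 letters GACCACCCA of the GLI consensus, read on either strand, here as its reverse complement TGGGTGGTC.
PTCH1, chr9:95509217-95509516, minus strand: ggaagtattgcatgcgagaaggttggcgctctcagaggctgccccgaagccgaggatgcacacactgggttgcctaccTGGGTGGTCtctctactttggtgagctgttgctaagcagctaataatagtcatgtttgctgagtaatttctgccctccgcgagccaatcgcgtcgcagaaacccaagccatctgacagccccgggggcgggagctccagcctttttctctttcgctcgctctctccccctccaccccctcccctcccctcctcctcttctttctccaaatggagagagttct
HHIP, chr4:144645906-144646205, plus strand: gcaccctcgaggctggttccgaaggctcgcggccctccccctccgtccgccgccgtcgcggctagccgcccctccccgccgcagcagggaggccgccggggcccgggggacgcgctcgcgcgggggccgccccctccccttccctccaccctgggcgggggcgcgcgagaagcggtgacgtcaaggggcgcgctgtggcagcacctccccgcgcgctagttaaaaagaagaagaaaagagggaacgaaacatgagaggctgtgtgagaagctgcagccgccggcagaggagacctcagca
PTCH1 has 5 windows in the RefSeq table, 1 for each listed start, and HHIP has 1. The PTCH1 window shown is the only one of the 5 with an exact match. Of the others, 2 overlap each other and hold the same site with 1 mismatch, and 2 do not match. In the window shown the match lay on the opposite strand, with its first base at position -172 from the transcript start. No exact match stood in the HHIP window. Of all 35116 windows in the RefSeq table, 83 (0.236%) held an exact match, and with at most 1 mismatch allowed the share was 6.74%. Counted by gene, 0.297% of 27305 genes had an exact match in at least 1 window. Windows were at hand for 5 of the 7 genes. None of the windows of GLI2, HHIP, SMO and SUFU matched even with 1 mismatch. A match is a run of letters and does not show that a GLI protein binds there.

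Between 15826923 and 18861603 reads per library fell on genes, and all 7 genes passed edgeR's filter on low counts, as did 14201 genes in total. Levels are given in CPM, which are counts scaled to a common library size with TMM factors. BIRC5, the gene of Survivin, had a mean level of 1133 CPM without and 1984 CPM with TMZ in Surv-GFP. Its mean was 411 CPM without and 258 CPM with TMZ in SurvNESmut-GFP, and the SD (n = 2) was 5.22 to 64.6 CPM. Both clones also carried a Survivin cDNA, so these counts may mix RNA of the gene with RNA of the construct. They therefore do not show how the gene itself responded to TMZ or differed between the clones. With primers for the endogenous RNA only, the paper reports that the Survivin gene was first repressed after TMZ in Surv-GFP cells and later recovered. CDKN1A, the p21 gene induced by p53, went from 81.9 ± 6.60 (SD, n = 2) to 941 ± 47.8 (SD, n = 2) CPM upon TMZ in Surv-GFP and from 118 ± 1.07 (SD, n = 2) to 460 ± 44.6 (SD, n = 2) CPM in SurvNESmut-GFP. Of the glial and glioma markers, 9 genes in all, the summed level was 6023 to 6085 CPM in untreated and 3881 to 3969 CPM in TMZ-exposed Surv-GFP cells, and 4679 to 4877 CPM and 4141 to 4275 CPM in SurvNESmut-GFP. Of the 8 tested, 6 were lower and 1 higher upon TMZ in Surv-GFP, beside 28.9% and 30.1% of all genes. In SurvNESmut-GFP 5 were lower and 2 higher, beside 19.1% and 18.6% of all genes. The summed level fell upon TMZ in both clones, as PTCH1 did, but unlike PTCH1 it also differed between the untreated clones. Most of the sum was VIM, with a mean of 3740 CPM in untreated Surv-GFP, so it hides how single markers differed. Untreated Surv-GFP and SurvNESmut-GFP had means of 777 and 40.6 CPM for S100B and 34.0 and 6.94 CPM for OLIG2. For NES they had 736 and 965 CPM, the other way round. Upon TMZ, the means of CD44 and EGFR rose in both clones, unlike the sum. The part of these markers in the values below was not tested. Among these markers GFAP, the astrocyte filament gene, had a mean of 0.0535 to 0.626 CPM in the 4 groups. The sums of neuronal (9.09 to 21.1 CPM), pericyte and fibroblast (34.2 to 55.7 CPM) and endothelial markers (0.428 to 0.867 CPM) were low throughout. Leukocyte markers summed to 12.0 to 21.7 CPM, nearly all of it from CD68, with AIF1 at 0 counts in every library. CD68, the only 1 of these 4 markers that was tested, was higher upon TMZ in both clones, beside 30.1% and 18.6% of all genes. Its mean went from 12.1 to 18.1 CPM in Surv-GFP and from 15.3 to 20.1 CPM in SurvNESmut-GFP.

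PTCH1, the receptor that holds SMO in check, had close levels in the untreated clones and was lower after TMZ in both, far more so in Surv-GFP. Its level was 131 and 135 CPM in the untreated Surv-GFP libraries and 30.3 and 32.5 CPM in those exposed to TMZ. In SurvNESmut-GFP it was 129 and 124 CPM without and 74.2 and 78.9 CPM with TMZ. The groups did not overlap, and the untreated means of both clones differed by a ratio of only 1.05. The fitted log2 fold change upon TMZ was -2.08 ± 0.06 (SE) in Surv-GFP, which is 4.24-fold lower, and -0.73 ± 0.05 (SE) in SurvNESmut-GFP, which is 1.66-fold lower. The log2 difference between these effects was 1.36 ± 0.08 (SE). With TMZ, PTCH1 was thus higher in SurvNESmut-GFP than in Surv-GFP by 1.29 ± 0.06 (SE) on the log2 scale, while the untreated clones differed by -0.07 ± 0.05 (SE). That last value was -0.13 with library size alone and -0.11 with only the 4 untreated libraries. In bulk RNA of a culture, fewer cells with PTCH1 and less of its RNA per cell cannot be told apart.

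HHIP, which encodes the protein that binds Hedgehog ligands outside the cell, went the other way. It had 7.53 and 8.39 CPM in untreated and 11.6 and 11.7 CPM in the TMZ-exposed libraries of Surv-GFP. In SurvNESmut-GFP it had 16.2 and 15.4 CPM without TMZ and 49.6 and 48.1 CPM with TMZ. All libraries of one group were apart from those of the next, and the TMZ-exposed SurvNESmut-GFP cells stood highest. The log2 fold change upon TMZ was 0.55 ± 0.11 (SE) in Surv-GFP and 1.63 ± 0.08 (SE) in SurvNESmut-GFP, or 1.46-fold and 3.09-fold higher. Between the clones, SurvNESmut-GFP was 1.99-fold higher when untreated and 4.19-fold higher with TMZ. An antisense gene, HHIP-AS1, shares 178 exon bases with HHIP (1.47% of the HHIP exons) and had 32 to 102 counts per library, and no source used here says whether reads were counted by strand.

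**Figure D1:**
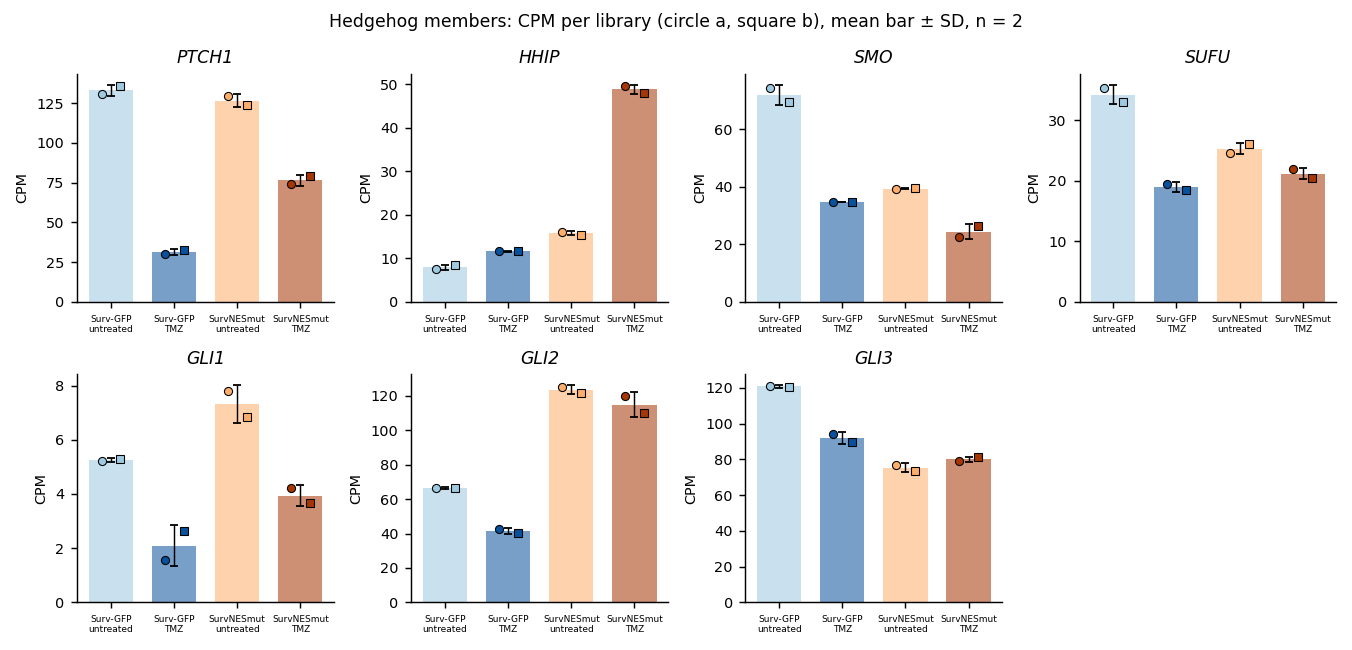
Level in CPM (y axis, from 0, a separate scale in each panel) of the 7 Hedgehog genes in the 4 groups, with 1 point per library (circle a, square b), bars for the mean and whiskers for the SD of 2 libraries. PTCH1 was at 133 and 127 CPM in the untreated clones and at 31.4 and 76.5 CPM after TMZ in Surv-GFP and SurvNESmut-GFP, whereas HHIP was highest, at 48.8 CPM, in TMZ-exposed SurvNESmut-GFP cells.

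SMO, the membrane protein that passes the signal on, had 74.5 and 69.5 CPM in untreated Surv-GFP and 34.9 and 34.8 CPM after TMZ. In SurvNESmut-GFP it had 39.2 and 39.6 CPM untreated and 22.6 and 26.3 CPM after TMZ. The untreated Surv-GFP cells thus held 1.83 times the level of the next group, and the TMZ-exposed Surv-GFP cells lay just under the untreated SurvNESmut-GFP cells, by a ratio of 1.13. Upon TMZ the log2 fold change of SMO was -1.05 ± 0.07 (SE) in Surv-GFP, and in SurvNESmut-GFP it was -0.69 ± 0.08 (SE). The difference between the effects, 0.36 ± 0.10 (SE), was 0.25 without library b of TMZ-exposed SurvNESmut-GFP and 0.30 without library a of untreated Surv-GFP.

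SUFU, the cytoplasmic inhibitor that binds GLI proteins, had 35.3 and 33.1 CPM in untreated and 19.5 and 18.4 CPM in TMZ-exposed Surv-GFP cells. It had 24.6 and 26.0 CPM in untreated and 21.9 and 20.5 CPM in TMZ-exposed SurvNESmut-GFP cells. TMZ changed it by -0.85 ± 0.08 (SE) on the log2 scale in the first clone and by -0.26 ± 0.08 (SE) in the second. Without library b of TMZ-exposed SurvNESmut-GFP the second value was -0.21, and without library b of its untreated cells it was -0.22. The clones differed by -0.43 ± 0.08 (SE) when untreated and lay close together with TMZ, where the log2 difference was 0.16 ± 0.09 (SE) and the ratio of means was 1.12.

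GLI1, the activator that serves as a readout of the pathway, was the least abundant of the 3 GLI genes. Its counts were 96 and 96 in untreated Surv-GFP, 29 and 46 after TMZ, 144 and 123 in untreated SurvNESmut-GFP and 72 and 58 after TMZ. In CPM these are 5.20 and 5.30, then 1.55 and 2.64, then 7.81 and 6.83, then 4.21 and 3.66. Every TMZ-exposed library lay below the untreated libraries of its clone, and the TMZ-exposed Surv-GFP libraries differed most from each other. For GLI1 the log2 fold change upon TMZ was -1.33 ± 0.22 (SE) in Surv-GFP and -0.89 ± 0.18 (SE) in SurvNESmut-GFP. The difference between the effects was 0.44 ± 0.29 (SE), but 0.89 without library b of TMZ-exposed Surv-GFP and 0.10 without library a. The higher level of SurvNESmut-GFP with TMZ, 0.92 ± 0.23 (SE) on the log2 scale, also depended on library a, without which it was 0.54. Between the untreated clones GLI1 differed by 0.48 ± 0.17 (SE), and by 0.38 without library a of untreated SurvNESmut-GFP.

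GLI2, the main activator, was higher in SurvNESmut-GFP in either condition. It had 66.7 and 66.2 CPM in untreated and 42.8 and 40.5 CPM in TMZ-exposed Surv-GFP cells, and 125 and 122 CPM in untreated and 120.0 and 109.9 CPM in TMZ-exposed SurvNESmut-GFP cells. The effect of TMZ on the log2 scale was -0.67 ± 0.06 (SE) in Surv-GFP and -0.10 ± 0.05 (SE) in SurvNESmut-GFP, and the latter was -0.17 without library a of TMZ-exposed SurvNESmut-GFP and -0.04 without library b. Between the clones the log2 difference was 0.90 ± 0.06 (SE) untreated and 1.47 ± 0.06 (SE) with TMZ.

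GLI3, the GLI protein best known as a repressor, showed the reverse order of clones. Its level was 121 and 120.4 CPM in untreated and 94.2 and 89.5 CPM in TMZ-exposed Surv-GFP cells, against 77.1 and 73.5 CPM in untreated and 79.1 and 81.2 CPM in TMZ-exposed SurvNESmut-GFP cells. The log2 fold change upon TMZ was -0.40 ± 0.05 (SE) in Surv-GFP and 0.09 ± 0.05 (SE) in SurvNESmut-GFP, and both TMZ-exposed libraries of each clone lay on their own side of its untreated libraries. The clones differed by -0.68 ± 0.05 (SE) untreated and by -0.20 ± 0.05 (SE) with TMZ.

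Levels of different genes were compared per length, as CPM per kb of the joined exons of GENCODE v29. On that scale GLI3 (11.0 ± 0.0587, SD, n = 2) was above GLI2 (9.05 ± 0.0516, SD, n = 2) in untreated Surv-GFP, and GLI2 (16.8 ± 0.344, SD, n = 2) was above GLI3 (6.87 ± 0.229, SD, n = 2) in untreated SurvNESmut-GFP. With TMZ the same order held, with GLI3 at 8.39 and GLI2 at 5.67 in Surv-GFP and GLI2 at 15.7 and GLI3 at 7.32 in SurvNESmut-GFP. SMO was the most abundant of the 7 genes per kb in untreated Surv-GFP (16.7), whereas GLI2 was in both SurvNESmut-GFP groups. GLI1 lay between 0.498 and 1.74 CPM per kb in the 4 groups. HHIP was the lowest of the 7 in untreated Surv-GFP (0.659), and in TMZ-exposed SurvNESmut-GFP (4.04) it came close to PTCH1 (4.61). The joined exons cover every annotated exon, 16591 bases for PTCH1 and 4311 for SMO, and may be longer than the transcripts in these cells. The order of different genes depends on these lengths. By CPM alone, PTCH1 (133) was above SMO (72.0) in untreated Surv-GFP.

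**Figure D2:**
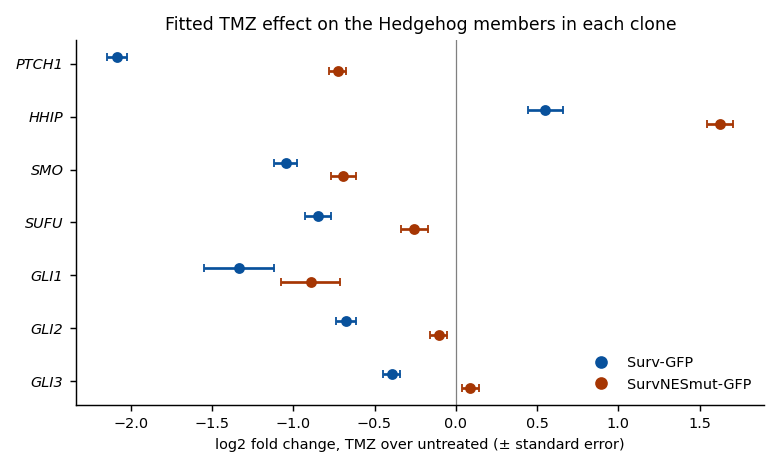
Fitted log2 fold change of TMZ-exposed over untreated cells (x axis, with the standard error as whiskers) for each of the 7 Hedgehog genes (y axis), in Surv-GFP and in SurvNESmut-GFP. For all 7 genes the point of SurvNESmut-GFP lies to the right of that of Surv-GFP, from -0.73 against -2.08 for PTCH1 to 1.63 against 0.55 for HHIP.

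Counted at a Benjamini-Hochberg adjusted p of 0.05 over all 14201 genes, 6 of the 7 genes were lower and 1 was higher upon TMZ in Surv-GFP, where 28.9% of all genes tested were lower and 30.1% higher. In SurvNESmut-GFP 4 were lower and 1 higher, where 19.1% of all genes were lower and 18.6% higher. For the signed difference between the effects, SurvNESmut-GFP minus Surv-GFP, 6 were positive and 0 negative, beside 16.6% and 20.2% of all genes. Between the untreated clones 3 were higher and 3 lower in SurvNESmut-GFP, beside 34.7% and 29.4% of all genes, and with TMZ 4 were higher and 2 lower, beside 34.5% and 34.7%. These comparisons share libraries, and since the genes were chosen on the same contrasts nothing is read from the counts. Under the other settings and with 1 library left out, the counts of TMZ-exposed against untreated Surv-GFP cells stayed at 6 and 1, those lower in SurvNESmut-GFP ran from 3 to 5, and those with a positive difference from 5 to 7. For the 7 genes the log2 fold change had a median of -0.85 with Surv-GFP and of -0.26 with SurvNESmut-GFP, where that of all tested genes was 0.00 in both.

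Across the 8 libraries the log2 level of GLI1 had a Pearson's r of 0.927 with PTCH1, SUFU of 0.817, GLI2 of 0.678, SMO of 0.488, GLI3 of 0.128 and HHIP of -0.0721, given as a description because the libraries share their groups. The genes most like PTCH1 by this measure were B4GALT5, a galactosyltransferase gene (r of 0.997), TPGS2 (0.994), COMMD9 (0.994), UBAP2L (0.992) and SYNJ2BP (0.991). Their log2 fold changes upon TMZ in Surv-GFP ran from -0.92 for B4GALT5 to -0.37 for TPGS2, all smaller in size than that of PTCH1. Of the 14200 other genes, 216 had an r of at least 0.95.

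To see how the rest of the pathway behaved, 59 further Hedgehog genes in 5 role groups were taken from the count file, 54 of which had enough counts to be tested. They were listed by role, with earlier results of these libraries known. Upon TMZ, edgeR's quasi-likelihood test found 13 (24.1%) higher and 23 (42.6%) lower in Surv-GFP, beside 30.1% and 28.9% of all genes. In SurvNESmut-GFP 8 (14.8%) were higher and 15 (27.8%) lower, beside 18.6% and 19.1%. These shares of all genes are the background of the counts by role below as well. Of the 54 genes, 11 (20.4%) were lower in both clones and 5 (9.26%) higher in both, beside 11.9% and 11.7% of all genes, and 2 went in opposite directions. Over the 54 genes the log2 fold change had a median of -0.18 for Surv-GFP and -0.05 for SurvNESmut-GFP. The difference between the effects passed the test upwards for 12 genes (22.2%) and downwards for 11 (20.4%), near the 16.6% and 20.2% of all genes, with a median of 0.08.

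**Figure D3:**
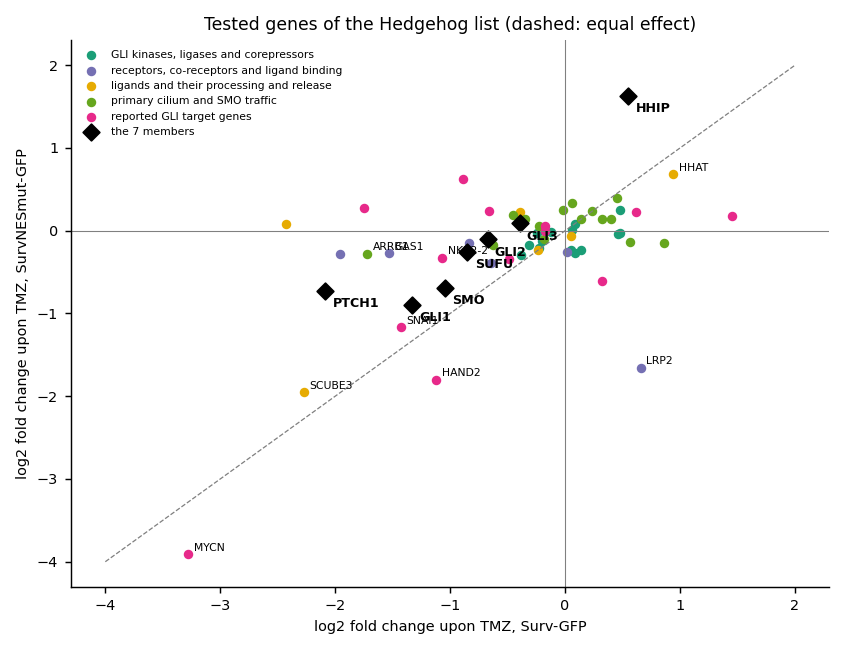
Log2 fold change upon TMZ in Surv-GFP (x axis) against SurvNESmut-GFP (y axis) for the 54 tested genes of the Hedgehog list, coloured by role, and the 7 core genes as black diamonds, with a dashed line where both effects are equal. MYCN lies lowest in both clones, and PTCH1 and GAS1 lie above the dashed line, with a larger drop in Surv-GFP.

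The ligands themselves were nearly silent. SHH had 0 counts in all 8 libraries, which allows up to 3 counts per library, IHH had 0 to 2 counts and DHH 9 to 25. Of 6 tested genes for ligands and their processing and release, 3 fell and 1 rose upon TMZ in Surv-GFP, and 1 fell and 1 rose in SurvNESmut-GFP. SCUBE3, a secreted factor of the family that helps ligand release, had 5.91 and 6.73 CPM in untreated and 1.50 and 1.09 CPM in TMZ-exposed Surv-GFP cells, and 4.23 and 4.72 CPM against 1.17 and 1.13 CPM in SurvNESmut-GFP. It fell by 2.27 ± 0.21 (SE, edgeR adjusted p = 9.9e-08) on the log2 scale in Surv-GFP and by 1.95 ± 0.24 (SE, edgeR adjusted p = 6.8e-06) in SurvNESmut-GFP. HHAT, the enzyme that attaches palmitate to the ligands, rose in both clones, by a log2 fold change of 0.94 ± 0.12 (SE, edgeR adjusted p = 4.6e-06) and 0.68 ± 0.10 (SE, edgeR adjusted p = 4.7e-05). DISP2, of the Dispatched family of ligand exporters, fell by 0.39 ± 0.12 (SE, edgeR adjusted p = 0.0092) in Surv-GFP, a call lost without library b of untreated Surv-GFP (edgeR adjusted p = 0.0521).

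Of the 6 genes for receptors, co-receptors and ligand binding, 4 fell and 0 rose upon TMZ in Surv-GFP, against 2 and 0 in SurvNESmut-GFP. GAS1, a membrane-anchored co-receptor, had 15.3 and 15.5 CPM in untreated and 4.76 and 5.91 CPM in TMZ-exposed Surv-GFP cells, and in SurvNESmut-GFP a mean of 15.7 ± 0.464 (SD, n = 2) CPM untreated against 11.7 and 14.3 CPM with TMZ. Like PTCH1, it was level in the untreated clones and lowest in TMZ-exposed Surv-GFP cells. Its log2 fold change was -1.53 ± 0.13 (SE, edgeR adjusted p = 5.2e-08) in Surv-GFP, and the difference between the effects was 1.26 ± 0.18 (SE, edgeR adjusted p = 4.4e-05). CDON, a co-receptor of the immunoglobulin superfamily, fell in both clones, by 0.64 ± 0.12 (SE, edgeR adjusted p = 0.00018) in Surv-GFP and by 0.39 ± 0.12 (SE, edgeR adjusted p = 0.0192) in SurvNESmut-GFP. The second of these calls was lost with DESeq2 (adjusted p = 0.101) and without library a of either SurvNESmut-GFP group (edgeR adjusted p = 0.140 and 0.0991).

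LRP2, an endocytic receptor that binds SHH, rested on few reads, with counts of 8 and 10 in untreated and 1 and 4 in TMZ-exposed SurvNESmut-GFP libraries and 19 to 33 in Surv-GFP. Its log2 fold change in SurvNESmut-GFP was -1.66 ± 0.63 (SE, edgeR adjusted p = 0.0498). This call, 1 of the 2 in that group and clone, was lost under 12 alternatives (adjusted p of 0.0501 to 0.368), and the value was -0.95 without library a of TMZ-exposed SurvNESmut-GFP.

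In the group for the primary cilium and SMO traffic, 6 of 15 tested genes rose and 5 fell upon TMZ in Surv-GFP, and 5 rose and 1 fell in SurvNESmut-GFP. ARRB1, a beta-arrestin that takes part in SMO traffic, fell by 1.72 ± 0.14 (SE, edgeR adjusted p = 2.7e-08) in Surv-GFP, from 29.2 and 27.2 CPM to 7.91 and 9.24 CPM. In SurvNESmut-GFP it was low already when untreated, at 4.28 and 4.33 CPM. With TMZ its libraries there spread around those values, at 2.40 and 4.79 CPM (41 and 76 counts). The effects on ARRB1 differed by 1.44 ± 0.28 (SE, edgeR adjusted p = 0.00078). TULP3, which carries receptors into the cilium, rose in Surv-GFP, from 43.8 and 46.9 CPM to 69.8 and 64.3 CPM, and its effect differed between the clones (-0.70 ± 0.09, SE, edgeR adjusted p = 2.1e-05), whereas EVC, a protein of the ciliary base that acts with SMO, differed the other way (0.65 ± 0.10, SE, edgeR adjusted p = 0.00013). KIF3A, a subunit of the ciliary motor, fell by 0.63 ± 0.06 (SE, edgeR adjusted p = 1.9e-07) in Surv-GFP and by 0.17 ± 0.06 (SE, edgeR adjusted p = 0.0446) in SurvNESmut-GFP. The second of these KIF3A calls was not examined under the alternatives. In SurvNESmut-GFP, KIF7, the ciliary kinesin that regulates GLI proteins, rose by 0.34 ± 0.07 (SE, edgeR adjusted p = 0.0019). STK36, a kinase related to Fused, rose there by 0.25 ± 0.07 (SE, edgeR adjusted p = 0.0083), a call lost without library b of untreated SurvNESmut-GFP (edgeR adjusted p = 0.125). GRK2, listed as ADRBK1, a kinase that acts on SMO, rose in Surv-GFP by 0.32 ± 0.05 (SE, edgeR adjusted p = 3.3e-05) and in SurvNESmut-GFP by 0.14 ± 0.05 (SE, edgeR adjusted p = 0.0363), where the call was lost under several alternatives (adjusted p of 0.0501 to 0.239).

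Of the 14 genes for GLI kinases, ligases and corepressors, 4 rose and 5 fell upon TMZ in Surv-GFP, and 1 rose and 6 fell in SurvNESmut-GFP. The changes were small. CSNK1A1, the casein kinase 1 alpha gene whose product takes part in GLI processing, rose in both clones, by 0.48 ± 0.05 (SE, edgeR adjusted p = 4.8e-07) and 0.25 ± 0.05 (SE, edgeR adjusted p = 0.0011). The ubiquitin ligase genes CUL3 and ITCH rose in Surv-GFP, by 0.46 ± 0.05 (SE, edgeR adjusted p = 2.7e-07) and 0.48 ± 0.05 (SE, edgeR adjusted p = 7.7e-07), and for both the effect in SurvNESmut-GFP differed from this by -0.50 ± 0.07 (SE, edgeR adjusted p = 2.4e-05 and 6.8e-05). SPOP, the adaptor of CUL3 for GLI2 and GLI3, rose by 0.14 ± 0.05 (SE, edgeR adjusted p = 0.0355) in Surv-GFP and fell by 0.24 ± 0.05 (SE, edgeR adjusted p = 0.0019) in SurvNESmut-GFP. The SPOP call in Surv-GFP was not examined under the alternatives. DYRK2, a kinase acting on GLI proteins, fell in both, by 0.38 ± 0.05 (SE, edgeR adjusted p = 1.2e-05) and 0.29 ± 0.05 (SE, edgeR adjusted p = 0.00029). For the signed difference between the effects, 6 of the 14 genes (42.9%) were lower in SurvNESmut-GFP and 0 higher, beside 20.2% and 16.6% of all genes. Of these 6 genes, 3, SPOP included, fell in SurvNESmut-GFP without falling in Surv-GFP. The group as a whole was not tested.

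**Figure D4:**
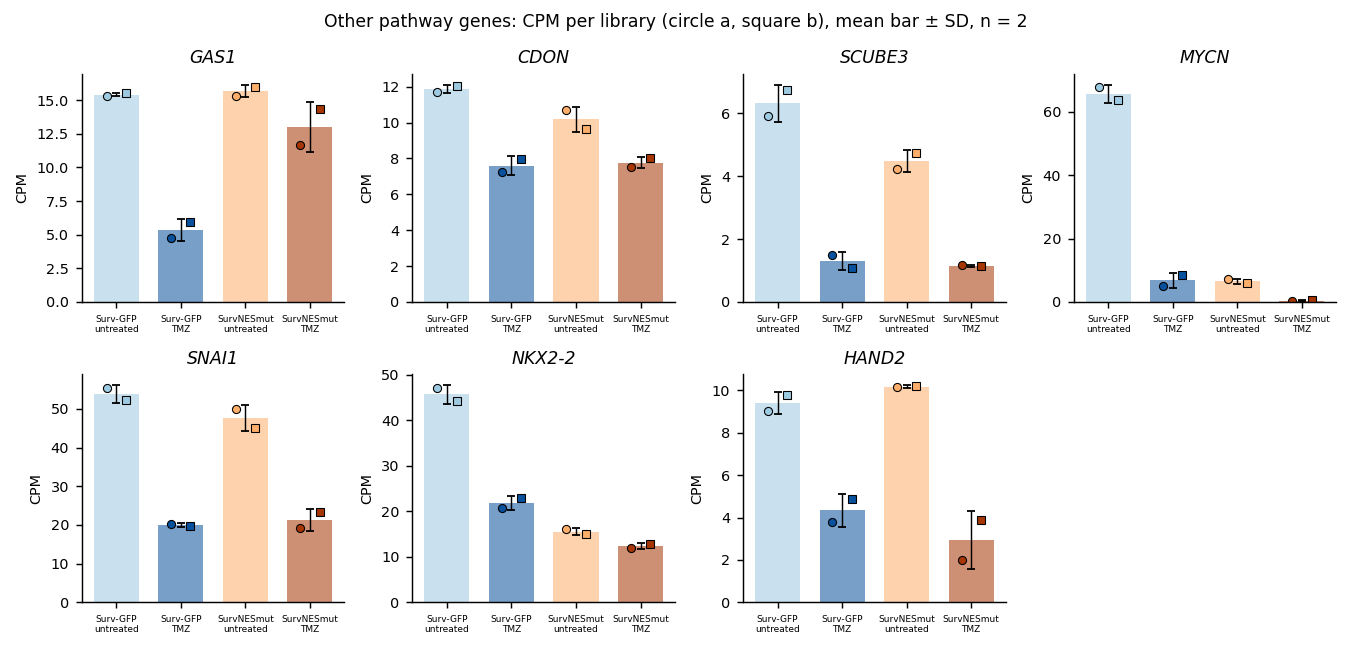
Level in CPM (y axis, from 0, a separate scale in each panel) of 7 further Hedgehog genes in the 4 groups, with 1 point per library (circle a, square b), bars for the mean and whiskers for the SD of 2 libraries. GAS1 was at 15.4 and 15.7 CPM in the untreated clones and at 5.34 CPM in TMZ-exposed Surv-GFP cells, and MYCN went from 65.8 to 6.81 CPM in Surv-GFP and from 6.47 to 0.432 CPM in SurvNESmut-GFP.

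Of the reported GLI target genes, 6 of 13 tested were lower and 2 higher upon TMZ in Surv-GFP, and 5 were lower and 1 higher in SurvNESmut-GFP. MYCN, the MYC family gene, had 67.7 and 63.8 CPM in untreated Surv-GFP and 5.13 and 8.49 CPM after TMZ, and 7.10 and 5.83 CPM in untreated SurvNESmut-GFP and 0.234 and 0.630 CPM after TMZ. Untreated SurvNESmut-GFP cells thus lay where Surv-GFP cells lay with TMZ. Its log2 fold changes were -3.28 ± 0.14 (SE, edgeR adjusted p = 7.1e-12) and -3.91 ± 0.37 (SE, edgeR adjusted p = 4.9e-07), the last of these on 4 and 10 counts in the TMZ-exposed libraries. SNAI1, the Snail repressor gene, had 55.4 and 52.3 CPM in untreated and 20.3 and 19.7 CPM in TMZ-exposed Surv-GFP cells, and 50.0 and 45.2 CPM against 19.3 and 23.3 CPM in SurvNESmut-GFP. It fell by 1.43 ± 0.09 (SE, edgeR adjusted p = 4.7e-10) and by 1.17 ± 0.09 (SE, edgeR adjusted p = 2.9e-08). The difference between these effects did not pass the test, at 0.26 ± 0.12 (SE, edgeR adjusted p = 0.107).

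HAND2, a developmental factor, fell by 1.12 ± 0.19 (SE, edgeR adjusted p = 7.9e-05) in Surv-GFP and by 1.80 ± 0.21 (SE, edgeR adjusted p = 3.8e-06) in SurvNESmut-GFP, there from 10.1 and 10.2 CPM to 1.99 and 3.91 CPM, and the difference did not pass the test (edgeR adjusted p = 0.0782). NKX2-2, a ventral neural tube factor, fell by 1.07 ± 0.08 (SE, edgeR adjusted p = 7.2e-09) in Surv-GFP, from 47.1 and 44.3 CPM to 20.7 and 22.9 CPM. In SurvNESmut-GFP it fell by 0.33 ± 0.10 (SE, edgeR adjusted p = 0.0171), a call not examined under the alternatives, and the effects differed by 0.74 ± 0.13 (SE, edgeR adjusted p = 0.00031). BCL2, the survival gene, had 16.6 and 16.5 CPM in untreated and 10.7 and 10.3 CPM in TMZ-exposed Surv-GFP cells, and 13.7 and 15.2 CPM against 18.4 and 15.6 CPM in SurvNESmut-GFP. Its effects differed by 0.89 ± 0.15 (SE, edgeR adjusted p = 0.00023). CCND1, the cyclin D1 gene, rose upon TMZ in Surv-GFP, from 382 and 381 CPM to 604 and 565 CPM, while in SurvNESmut-GFP it had 1383 and 1503 CPM untreated and 1752 and 1634 CPM with TMZ. It rose by 0.62 ± 0.05 (SE, edgeR adjusted p = 4.8e-08) and 0.23 ± 0.05 (SE, edgeR adjusted p = 0.0023), and the effects differed by -0.38 ± 0.07 (SE, edgeR adjusted p = 0.00073).

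Between the clones, 15 (27.8%) of the 54 genes were higher and 14 (25.9%) lower in SurvNESmut-GFP when untreated, beside 34.7% and 29.4% of all genes. With TMZ 21 (38.9%) were higher and 16 (29.6%) lower, beside 34.5% and 34.7%. The contrasts of FOXF2 and GPC3 were picked out after their values were seen. FOXF2, a reported target, had 126 to 159 counts in each Surv-GFP library and 0 in all 4 SurvNESmut-GFP libraries, which allows up to 3 counts per library. GPC3, a proteoglycan that binds Hedgehog ligands, had 0 to 2 counts in the Surv-GFP libraries and 315 to 440 in the SurvNESmut-GFP libraries.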

How the data were processed

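The authors sequenced total RNA of 2 LN229 clones without TMZ or after 48 h in 50 µM TMZ, with 2 libraries per group. The deposited file holds the authors' raw read counts for 26364 gene symbols, and 2 further rows for reads on no gene or on several (12.5% to 15.5% of each total) were left out. The submitters' processing notes name STAR 2.5.0b, Cufflinks 2.2.1 and edgeR. No source used here gives the counting program, annotation, genome build or strandedness. The authors' 5 comparison tables, which hold log2 fold changes, log2 CPM, F statistics, p and FDR, were not used.

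Counts were fitted in R 4.3.3 with edgeR 4.0.16 and limma 3.58.1 as 1 model of 4 group means over all 8 libraries, with TMM factors (0.978 to 1.02), edgeR's low-count filter by group and the legacy quasi-likelihood F test. The p-values were adjusted by Benjamini-Hochberg over 14201 genes, and the common biological coefficient of variation was 4.09%. The standard error of a log2 fold change was its size divided by the square root of F. The scripts were tested on simulated data. Replicates differed beyond sampling noise, so each counted as 1 sample, and p-values measure only the spread between these libraries, which may be technical. A count of 0 allows up to 3 counts, for counting error only.

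The members and lists were chosen with earlier results of these data known. In each role group and comparison up to 3 genes past the threshold were named, those with the smallest p, and a few genes that the rule takes are not reported here. Alternatives were DESeq2 1.42.0, 2 other scalings, no filter, the newer quasi-likelihood method, the replicate letter as a block, a fit of only the 4 libraries in a comparison, and leaving out each library. Exact matches of the GLI consensus were sought on both strands of RefSeq promoter windows (GRCh38.p14).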

Additional observations from a re-analysis of the deposited data

Results flagged for a closer look

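For 11 genes of the Hedgehog list, edgeR's test of the difference itself found that the TMZ effect differed between the clones. On the log2 scale and as SurvNESmut-GFP minus Surv-GFP, the differences were 0.62 for DISP2, 1.26 for GAS1, -2.32 for LRP2, -0.70 for TULP3, 0.65 for EVC, -0.50 for CUL3, -0.50 for ITCH, -0.38 for SPOP, 0.89 for BCL2, 0.74 for NKX2-2 and -0.38 for CCND1. The genes are those that the naming rule took from 23 called in the list and that are reported here. The LRP2 difference lost its call without library b of untreated SurvNESmut-GFP (edgeR adjusted p = 0.0821) or library a of TMZ-exposed SurvNESmut-GFP (edgeR adjusted p = 0.112).

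GLI3 was flagged because both TMZ-exposed libraries lay below the untreated ones in Surv-GFP and above them in SurvNESmut-GFP. With 2 libraries per group such a separation arises easily by chance, and the other core genes also showed it within each clone. The rise in SurvNESmut-GFP was small, at a log2 fold change of 0.09 ± 0.05 (SE), and did not pass the threshold used for the counts. A reversal is therefore not shown, and the share of all genes with this opposite order was not counted. The log2 difference between the effects was 0.49, and because GLI3 was chosen on these values it is given with no test of the difference.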

How the results depend on the processing

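Under the alternatives that were run, no result past the threshold turned its direction. The count of Hedgehog list genes higher upon TMZ in SurvNESmut-GFP, 8, was 5 with DESeq2 and 5 with only the 4 libraries compared, and ranged from 4 (without library b of untreated SurvNESmut-GFP) to 10 when 1 library was left out. With 1 library left out, the log2 fold change of PTCH1 upon TMZ in Surv-GFP ranged from -2.17 to -2.03 and its difference between the clones from 1.31 to 1.44, with both ends farthest from the full fit reached without library b of TMZ-exposed Surv-GFP. For HHIP these ranges were 0.48 to 0.63 and 0.99 to 1.15, set by the libraries of untreated Surv-GFP. The cause was not tested. Of the pathway genes named, 28 values under alternatives lost their call, and for the 7 core genes 10 values lost and 6 gained the call used in their counts.

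The letters a and b are not said to mark a shared culture or day, and the deviations of same-lettered libraries correlated by -0.194 to 0.160 across genes. With the replicate block added, 13 Hedgehog list genes were higher and 23 lower in Surv-GFP, and 7 higher and 13 lower in SurvNESmut-GFP. The LRP2 effect in SurvNESmut-GFP was -1.66 with the block (edgeR adjusted p = 0.0641).

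With 2 libraries per group and 1 clone per construct, the errors describe libraries and not clones. Depth limits LRP2 (1 to 33 counts per library) most among the genes whose call changed.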
